A study of Homo sapiens with 12 samples.

Results

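The genes described here are 9 members of the annexin and S100 families of calcium-binding proteins: the annexins ANXA1, ANXA2, ANXA3, ANXA4 and ANXA5, and the S100 genes S100A6, S100A10, S100A11 and S100A13. They were taken by symbol from the deposited table, in which all 9 were present among 13310 genes. By gene ID these are ENSG00000135046 (ANXA1, chromosome 9), ENSG00000182718 (ANXA2, chromosome 15), ENSG00000138772 (ANXA3, chromosome 4), ENSG00000196975 (ANXA4, chromosome 2), ENSG00000164111 (ANXA5, chromosome 4), and, all on chromosome 1, ENSG00000197956 (S100A6), ENSG00000197747 (S100A10), ENSG00000163191 (S100A11) and ENSG00000189171 (S100A13). The table comes from poly(A) RNA-seq of H9, a human embryonic stem cell line, with 4 groups of 3 libraries each. FT671_NEUR cells were differentiated towards the neural lineage with FT671, a small-molecule inhibitor of the deubiquitinase USP7. DMSO_NEUR cells were differentiated with dimethyl sulfoxide, the solvent. NEUR cells were differentiated without addition, and UNDIF cells were left undifferentiated in mTeSR medium on Matrigel. Every group carries a wild-type genotype in the labels, although the title of the deposited table names a USP7 heterozygote. Neural differentiation used the SMAD pathway inhibitors A83-10 and Dorsomorphine in serum replacement medium, followed by a neural stem cell medium that held EGF and bFGF. The labels used here give no dose, start or length of the FT671 treatment. For DMSO_NEUR, the treatment field reads as undifferentiated while the titles say neural, and the titles were followed. The labels leave out whether the replicates come from separate cultures, and the spread that the p-values rest on may thus be technical.

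Annexins bind acidic phospholipids of membranes when calcium rises, and through this they link membranes to the cytoskeleton, take part in vesicle traffic and help to reseal a torn plasma membrane. S100 proteins are small EF-hand proteins that work mostly as dimers and bind target proteins, annexins among them. S100A10 and ANXA2 form a heterotetramer at the inner face of the plasma membrane and also at the cell surface, where it is known to bind plasminogen and its activators. S100A11 is a known partner of ANXA1. Many genes of both families are well expressed in epithelial and mesenchymal cells.

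The values are the authors' read counts per gene divided by 1 size factor per library, called normalized counts below. Libraries held 17107952 to 17271155 reads in the table's genes in FT671_NEUR, 17149947 to 17198800 in DMSO_NEUR, 16404262 to 17104970 in NEUR and 15906471 to 16072737 in UNDIF. Calls below mean a limma adjusted p under 0.05 on log2(normalized count + 1), with Benjamini-Hochberg adjustment over all 13310 genes, and fold changes on this scale understate those of low genes. The table holds almost only genes that changed. Of its genes, 13301 were called in at least 1 of the 4 comparisons below, and no gene lay within 0.1 on the log2 scale of no change in both FT671_NEUR against DMSO_NEUR and NEUR against UNDIF. Of the 2400 genes with an FDR of 0.05 or more in the authors' deposited table (UNDIF and NEUR), 2393 were called here between FT671_NEUR and DMSO_NEUR. How the authors chose the genes is not given in the sources used here. The shares of genes called below are therefore shares of a table of mostly changed genes, and the adjusted p-values cover these genes alone. USP7 mRNA itself was lower with FT671, at 2630.2 ± 22.3 normalized counts in FT671_NEUR and 3940.0 ± 117 in DMSO_NEUR (SD, n = 3 each; limma adjusted p = 9.51e-08).

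The comparison of NEUR with UNDIF asks what neural differentiation did to these genes. All 9 rose, 8 of them at least 2-fold, with a median log2 fold change of 2.35 against -0.03 over all genes of the table. Of all genes, 40.4% were called higher, 41.6% lower and 15.4% at least 2-fold higher. Every NEUR library was above every UNDIF library for all 9 genes, which held for 39.2% of the table. The 9 genes, and the gene lists used below, were chosen with earlier results of these data known. Setting them beside the shares of all genes is thus description and not a test. The largest gain was that of ANXA1, the phospholipid-binding protein known as a mediator of the anti-inflammatory action of glucocorticoids. ANXA1 had 30397, 30879 and 33218 normalized counts in NEUR, against 1005, 689.6 and 452 in UNDIF. The groups lay far apart, although the UNDIF libraries themselves differed more for this gene than for any other member on the log scale. Its log2 fold change was 5.53 ± 0.18 (SE; limma adjusted p = 3.28e-14), a fold of 46.3 with a 95% interval of 35.7 to 59.9.

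ANXA2 was next, with 15049.9, 14991 and 17913 normalized counts in NEUR and 1445, 1265 and 1332 in UNDIF. Its log2 fold change was 3.56 ± 0.08 (limma adjusted p = 3.01e-16). S100A10, the partner of ANXA2 and an S100 protein that has lost calcium binding, had 4025, 4382 and 5561 in NEUR and 798, 777 and 846 in UNDIF. It rose by 2.51 ± 0.09 on the log2 scale (limma adjusted p = 2.48e-13), a smaller gain than that of ANXA2. For both genes every NEUR library was above every UNDIF library.

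The promoter windows of these 3 genes are shown because ANXA1 and ANXA2 made the largest gains and S100A10 encodes the partner of ANXA2. Each runs from 250 bases before to 50 bases after the RefSeq start, 5′ to 3′ on the gene's strand, in build GRCh38.p14: ANXA1 at chr9:73151615-73151914 on the plus strand, ANXA2 at chr15:60397937-60398236 on the minus strand and S100A10 at chr1:151993810-151994109 on the minus strand. Capitals mark exact matches to the AP-1 letters TGANTCA, the TEAD letters GGAATG and the TATA box letters TATAAA on either strand, and the S100A10 window has no such match.
ANXA1: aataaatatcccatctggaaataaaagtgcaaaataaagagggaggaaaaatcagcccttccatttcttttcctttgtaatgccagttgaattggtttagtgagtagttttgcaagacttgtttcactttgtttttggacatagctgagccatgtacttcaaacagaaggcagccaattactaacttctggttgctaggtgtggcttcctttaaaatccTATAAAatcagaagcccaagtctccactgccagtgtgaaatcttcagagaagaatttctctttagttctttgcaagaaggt
ANXA2: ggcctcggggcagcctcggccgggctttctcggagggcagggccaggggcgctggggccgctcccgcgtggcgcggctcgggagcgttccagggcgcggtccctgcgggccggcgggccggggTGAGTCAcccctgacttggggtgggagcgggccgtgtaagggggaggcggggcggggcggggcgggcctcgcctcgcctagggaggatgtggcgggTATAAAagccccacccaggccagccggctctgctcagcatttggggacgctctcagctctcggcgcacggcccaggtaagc
S100A10: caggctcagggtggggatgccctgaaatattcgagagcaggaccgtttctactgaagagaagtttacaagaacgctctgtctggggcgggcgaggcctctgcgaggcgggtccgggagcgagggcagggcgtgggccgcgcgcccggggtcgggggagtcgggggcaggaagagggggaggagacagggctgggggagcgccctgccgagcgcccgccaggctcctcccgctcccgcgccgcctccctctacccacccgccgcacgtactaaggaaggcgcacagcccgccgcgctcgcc

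The ANXA2 window holds 1 AP-1 match and 1 TATA box, the ANXA1 window 1 TATA box. Over 12 windows of the 9 genes, AP-1 letters were found for 1 gene, TATAAA for 3 (ANXA1, ANXA2 and S100A13), the GC box GGGCGG for 7 and the E-box CACCTG for 2 (ANXA3 and ANXA4), while TEAD letters were in no window. By window, 1 of the 12 held the AP-1 letters, 3 TATAAA, 8 the GC box and 2 the E-box. Among 35116 RefSeq windows of the same length, 7.71% held the AP-1 letters, 14.03% TEAD, 11.5% TATAAA, 45.0% the GC box and 20.6% the E-box. These are letter matches only, and binding was not measured.

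The other annexins of the set rose less. ANXA3, known from the granules of neutrophils, had 2855, 2900.1 and 2861 normalized counts in NEUR and 519, 578 and 460.2 in UNDIF (log2 fold change 2.47 ± 0.08, limma adjusted p = 3.00e-14). ANXA4, found at the membranes of many epithelia, had 861, 871 and 881 in NEUR and 218, 238 and 224 in UNDIF (1.94 ± 0.07, limma adjusted p = 2.48e-13). ANXA5, whose binding to phosphatidylserine is used to stain dying cells, was already abundant before differentiation. It had 10750.3, 10263 and 11899 in NEUR and 6399, 6599 and 6689 in UNDIF, groups that did not overlap. Its log2 fold change of 0.74 ± 0.07 (limma adjusted p = 3.93e-08) was the smallest of the set and the only one under 2-fold.

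Of the S100 genes, S100A11 had 4879, 4973 and 5529 normalized counts in NEUR and 1166, 918 and 942 in UNDIF (log2 fold change 2.35 ± 0.08, limma adjusted p = 1.30e-13). S100A6, or calcyclin, which binds the calcyclin-binding protein, had the fewest normalized counts of the 9 genes without regard to length, with 118, 139 and 155 in NEUR and 37.3, 28.2 and 30.7 in UNDIF. It rose by 2.07 ± 0.17 (limma adjusted p = 6.49e-09). S100A13 takes part in the release of FGF1 and interleukin 1 alpha, which leave cells without a signal peptide. It had 1413, 1369.8 and 1984 in NEUR and 531, 601 and 609 in UNDIF (1.43 ± 0.11, limma adjusted p = 3.66e-09). In all 4 genes the groups were separate. All 9 genes also had an FDR under 0.05 for this pair of groups in the authors' deposited table, between 0.0 as printed for ANXA2 and 5.35e-22 for S100A6.

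NEUR replicate 3 was the highest of its group in 8 of the 9 genes. Its deviation from the mean of the other NEUR libraries ran against exon length, tending to be higher in shorter genes (Spearman correlation -0.479 over 13110 genes, a description over genes of 1 library). Without NEUR replicate 3, all 9 genes were still called higher in NEUR than in UNDIF. DMSO_NEUR replicate 1 was likewise the highest of its group in 8 of the 9 genes (Spearman correlation -0.124). The part of exon length in the changes was not tested. Cell type markers are given next, where 40.4% of all genes were called higher and 41.6% lower in NEUR against UNDIF. Mesenchyme markers moved with this comparison: all 5 measured of 7 listed were higher. Their summed normalized counts, mostly of COL1A1 and COL1A2, were 52764 to 59932.5 in NEUR and 12488 to 13613 in UNDIF. Of the 8 epithelial and surface ectoderm markers 4 were higher and 4 lower. The 5 measured of 6 pluripotency markers were lower, with sums of 10219.7 to 10904 in NEUR and 44832 to 46262 in UNDIF, and TDGF1 was at 0 in every NEUR library. Of 6 measured neural progenitor markers 4 were higher, PAX6 among them, and SOX2 and FABP7 were lower. Of 5 measured neuronal markers 3 were higher and 2, MAP2 and DCX, were lower, with sums of 779 to 963 in NEUR and 2651 to 3023 in UNDIF. Trophoblast and amnion markers, 5 measured of 7 listed, had 3 higher, 1 lower and 1 not called. Their sums were 1141 to 1285 in NEUR and 462 to 552 in UNDIF. Endothelial markers, 3 measured of 4 listed, had 1 higher and 2 lower. The part of these shifts in the changes of the 9 genes was not tested.

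**Figure D1:**
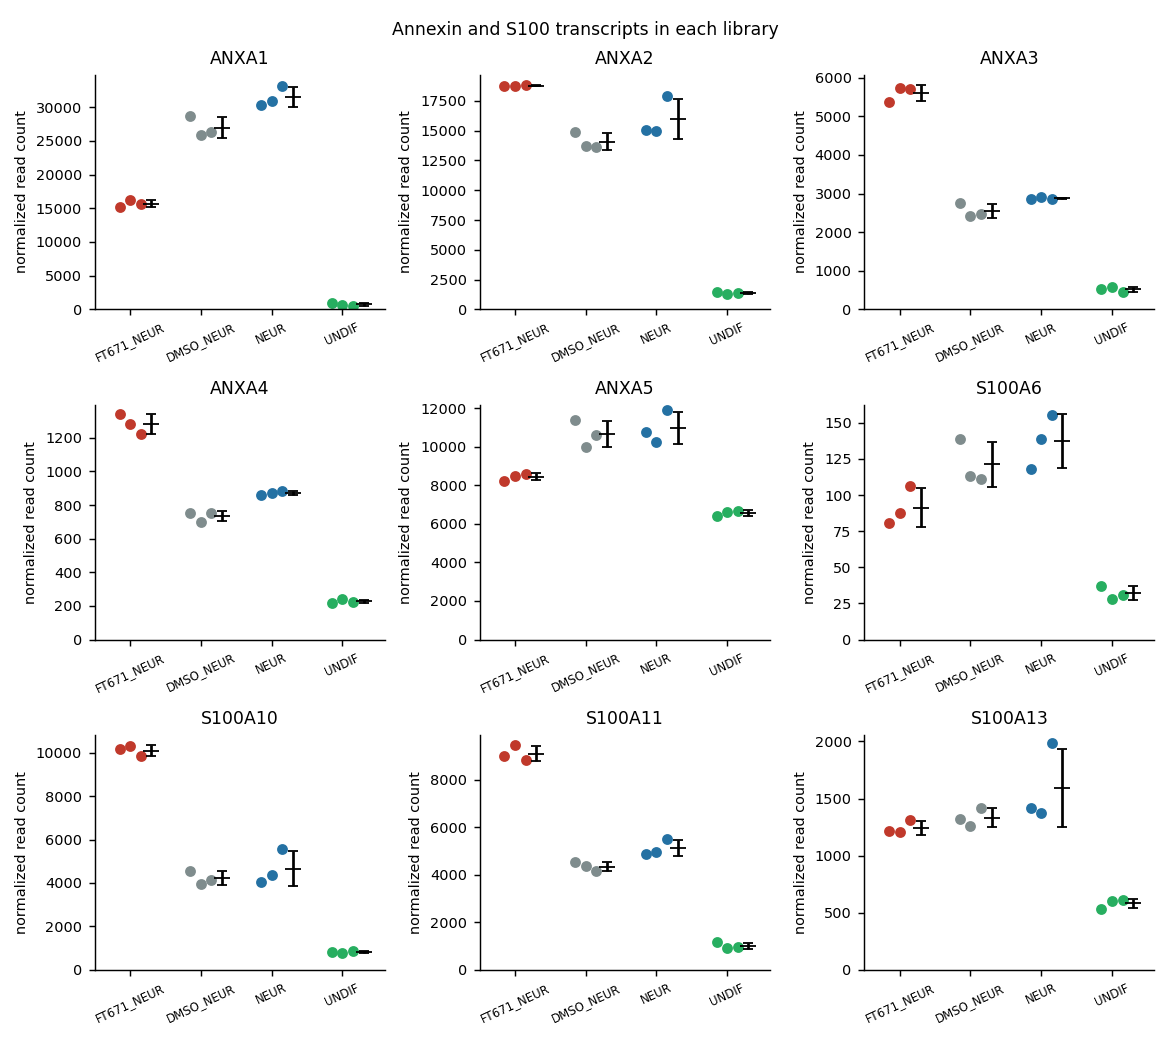
Normalized read counts of the 9 genes in each library, with FT671_NEUR, DMSO_NEUR, NEUR and UNDIF from left to right, points for single libraries and bars for the mean ± SD of 3. UNDIF is lowest for all 9 genes, and FT671_NEUR is highest for ANXA2, ANXA3, ANXA4, S100A10 and S100A11.

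The comparison of FT671_NEUR with DMSO_NEUR asks what USP7 inhibition did during differentiation. The set split. ANXA2, ANXA3, ANXA4, S100A10 and S100A11 rose, with S100A10, ANXA3 and S100A11 more than 2-fold, while ANXA1, ANXA5 and S100A6 fell and S100A13 was not called. Thus 5 of 9 were called higher, where 40.2% of all genes of the table were, and 3 of 9 lower, where 39.7% were. Both shares are near the background, and at least 2-fold higher were 3 of 9 against 16.4%. The median log2 fold change was 0.42, against 0.01 over all genes. In 8 of the 9 genes the libraries of the groups did not overlap, which held for 84.7% of all genes.

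S100A10 changed most. It had 10156, 10319 and 9841 normalized counts in FT671_NEUR, against 4571, 3951 and 4132 in DMSO_NEUR, with no overlap. The log2 fold change was 1.26 ± 0.09 (SE; limma adjusted p = 2.03e-09), a fold of 2.40 with a 95% interval of 2.09 to 2.76. S100A11 was higher in every FT671_NEUR library as well, at 9027, 9465 and 8828, against 4520.1, 4353 and 4143 in DMSO_NEUR (1.07 ± 0.08, limma adjusted p = 3.75e-09). ANXA3 had 5379, 5743 and 5715 in FT671_NEUR and 2747, 2419 and 2482 in DMSO_NEUR (1.14 ± 0.08, limma adjusted p = 6.53e-10). These 3 genes also lay closest to each other in pattern over the 12 libraries, as given further below.

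Smaller gains were those of ANXA4 and ANXA2. ANXA4 had 1340.5, 1281 and 1223 normalized counts in FT671_NEUR and 754, 700.3 and 750.4 in DMSO_NEUR (log2 fold change 0.80 ± 0.07, limma adjusted p = 2.56e-08). ANXA2 had 18720.3, 18791 and 18837 in FT671_NEUR and 14907, 13686 and 13661 in DMSO_NEUR. That is a gain of 0.42 ± 0.08 on the log2 scale (limma adjusted p = 1.05e-04), or 1.33-fold. The 3 FT671_NEUR libraries were nearly equal for this gene, and all were above the DMSO_NEUR range.

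ANXA1 went the other way. It had 15222, 16183 and 15694 normalized counts in FT671_NEUR, against 28701, 25907 and 26267 in DMSO_NEUR, and the groups did not overlap. Its log2 fold change was -0.78 ± 0.18 (limma adjusted p = 0.000702), a fold of 0.583 with a 95% interval of 0.450 to 0.755. This SE rests on 1 variance over all 4 groups, UNDIF with its range of 452 to 1005 included. It is not the spread of FT671_NEUR and DMSO_NEUR alone. ANXA5 was lower too, with 8237, 8504 and 8568 in FT671_NEUR and 11359, 9995 and 10583 in DMSO_NEUR (-0.33 ± 0.07, limma adjusted p = 3.30e-04). Both remained above the UNDIF libraries.

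S100A6 had 80.5, 87.3 and 106 normalized counts in FT671_NEUR and 139, 113 and 111 in DMSO_NEUR, a gap between the groups smaller than the range within either. Its log2 fold change of -0.41 ± 0.17 passed narrowly (limma adjusted p = 0.0359). Without DMSO_NEUR replicate 1, FT671_NEUR replicate 1 or FT671_NEUR replicate 2 it was not called (limma adjusted p = 0.142, 0.132 and 0.0868), with log2 fold changes of -0.31, -0.32 and -0.38. S100A13 had 1218, 1203 and 1313 in FT671_NEUR and 1324, 1257 and 1419 in DMSO_NEUR, ranges that overlap. Its log2 fold change was -0.10 ± 0.11 (limma adjusted p = 0.426), with a 95% interval of -0.34 to 0.14.

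**Figure D2:**
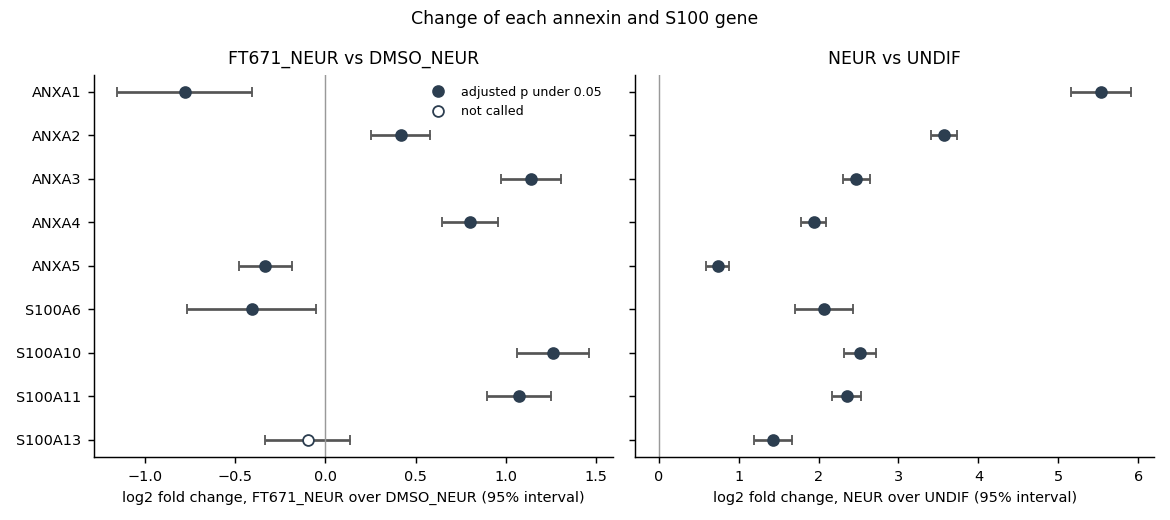
Log2 fold changes with 95% intervals for FT671_NEUR over DMSO_NEUR (left) and NEUR over UNDIF (right), with filled points for genes called at an adjusted p under 0.05. All 9 genes lie right of 0 after differentiation, between 0.74 and 5.53, while FT671 moved 5 of them up and 3 down.

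Markers of other cell types moved with the FT671 comparison, in which 40.2% of all genes of the table were called higher and 39.7% lower. All 8 epithelial and surface ectoderm markers were higher, and their summed normalized counts were 169722 to 191641 in FT671_NEUR, 38065 to 39806 in DMSO_NEUR, 47712 to 59500.2 in NEUR and 15247 to 15465 in UNDIF. All 6 measured neural progenitor markers were lower, with sums of 5726 to 6052 in FT671_NEUR, 44646 to 45940 in DMSO_NEUR, 41604 to 43029.7 in NEUR and 22635 to 26657 in UNDIF, and FABP7 was at 0 in every FT671_NEUR library. The defining markers PAX6 and SOX2 had log2 fold changes of -8.19 and -6.86, so the neural label of FT671_NEUR goes with few transcripts of these genes. Of 5 pluripotency markers measured, ZFP42 (2.90), TDGF1 (1.51) and POU5F1 (1.13) were higher on the log2 scale, LIN28A (-3.02) was lower and DPPA4 was not called, with sums of 3051 to 3502 in FT671_NEUR and 10002 to 11085 in DMSO_NEUR. TDGF1 and POU5F1 averaged 3.17 and 4.23 normalized counts in FT671_NEUR and 0.648 and 1.62 in DMSO_NEUR. Of 5 neuronal markers measured, 1 was higher and 4 were lower, with sums of 625 to 673 in FT671_NEUR and 842 to 996 in DMSO_NEUR. With TMM scaling, and also with libraries scaled by totals, 0 were higher and 4 lower. Of 5 mesenchyme markers measured of 7 listed, 2, COL1A1 and COL1A2, were higher and 3, COL3A1, PDGFRB and ACTA2, were lower. Their sums, mostly of COL1A1 and COL1A2, were 112077 to 116350 in FT671_NEUR and 44297 to 58224 in DMSO_NEUR. The 5 trophoblast and amnion markers measured of 7 listed were higher, with sums of 5033 to 5348 in FT671_NEUR and 1013 to 1058 in DMSO_NEUR, where HAND1 was at 0. CGA was at 0 in UNDIF. The 3 endothelial markers measured of 4 listed were lower, with sums of 255 to 298 in FT671_NEUR and 1455 to 1921 in DMSO_NEUR. The only blood marker measured, AIF1, was at 0 in FT671_NEUR and at 0.972 to 4.84 in DMSO_NEUR. The part of these shifts in the annexin and S100 changes was not tested. In such bulk RNA, fewer cells of a type and less RNA per cell cannot be told apart.

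DMSO_NEUR and NEUR differ in their labels by the solvent. The labels used here give no batch, so effects of solvent and batch cannot be told apart. Between these groups limma called 0 of the 9 genes, where 0.398% of all genes of the table were called. At an unadjusted p under 0.05 there were 4, all lower in DMSO_NEUR, and edgeR and DESeq2 each called 0. The share of all genes at this unadjusted cut was not counted in the same fit. Limma fitted to only these groups had 729 of the 13310 genes under it, so the 0.398% is not the background for such counts. The mean was lower in DMSO_NEUR for all 9 genes, with log2 fold changes of -0.04 to -0.25 and limma adjusted p-values of 0.280 to 0.871. For 5 genes (ANXA1, ANXA2, ANXA3, ANXA4 and S100A11) the groups did not overlap, DMSO_NEUR being lower, against 6.78% of all genes. Without NEUR replicate 3, ANXA5 and S100A10 stood at 0.017 and 0.0035, on the other side of 0. Epithelial markers moved with this comparison: of 8, limma called 4 lower, KRT7 (-1.01), CDH1 (-0.63), EPCAM (-0.50) and KRT18 (-0.41), where 0.398% of all genes were called. All 8 were lower in DMSO_NEUR at an unadjusted p under 0.05, with a median log2 fold change of -0.55. Their sums were 38065 to 39806 in DMSO_NEUR and 47712 to 59500.2 in NEUR. ZFP42 was also called lower (-0.60). The part of these shifts in the lower means was not tested. The interval for ANXA4, the gene with the largest difference, was -0.40 to -0.09 on the log2 scale.

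FT671_NEUR against UNDIF places the inhibited cultures relative to the starting cells, and it shares libraries with the comparisons above. All 9 genes were higher in FT671_NEUR, 8 of them at least 2-fold, where 44% of all genes were called higher and 23.8% at least 2-fold higher. No library overlapped between the groups for any of the 9, as for 45% of all genes with FT671_NEUR above UNDIF. The log2 fold changes were 4.53 for ANXA1, 3.80 for ANXA2, 3.65 for S100A10, 3.44 for ANXA3, 3.18 for S100A11, 2.49 for ANXA4, 1.48 for S100A6, 1.10 for S100A13 and 0.36 for ANXA5. ANXA5 was the weakest and lost its call when libraries were scaled by their totals alone (log2 fold change 0.09, limma adjusted p = 0.237), a scaling that moved the median of all genes in this comparison to -0.27.

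Over the 4 groups the genes fell into 2 orders of mean level. ANXA2, ANXA3, ANXA4, S100A10 and S100A11 were highest in FT671_NEUR, then NEUR, then DMSO_NEUR, with UNDIF lowest. ANXA1, ANXA5, S100A6 and S100A13 were highest in NEUR, then DMSO_NEUR, then FT671_NEUR, with UNDIF again lowest. Neighbouring groups in these orders overlapped for DMSO_NEUR and NEUR in ANXA5, S100A6, S100A10 and S100A13, and for FT671_NEUR and DMSO_NEUR in S100A13. All other neighbours were separate. Together the 9 genes took 0.387% ± 0.00589 of the table's reads in FT671_NEUR, 0.389% ± 0.0209 in DMSO_NEUR, 0.445% ± 0.0390 in NEUR and 0.0783% ± 0.000903 in UNDIF (SD, n = 3 each). As normalized counts their sum was 69380.5 to 71576 in FT671_NEUR, 62381 to 69021 in DMSO_NEUR, 70349 to 80001 in NEUR and 11584 to 12118 in UNDIF. The share of reads thus overlapped between FT671_NEUR and DMSO_NEUR, while the sum of normalized counts was higher in every FT671_NEUR library than in every DMSO_NEUR library.

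Levels of different genes can be set side by side per kilobase of exon, here the union of exons in GENCODE release 29 (GRCh38), while the authors' reads were mapped to hg19 and their annotation is not given in the sources used here. On this scale S100A11 was the most abundant of the 9 in FT671_NEUR (13392 ± 479 normalized counts per kb), DMSO_NEUR (6380.4 ± 278) and NEUR (7539.97 ± 516), and ANXA5 in UNDIF (2163 ± 48.9). S100A10 was above ANXA2 per kb in every group, with 6549 and 2129 in FT671_NEUR, 2734 and 1596 in DMSO_NEUR, 3017 and 1811 in NEUR, and 523 and 153 in UNDIF. ANXA1 had 3442 per kb in FT671_NEUR, 5911 in DMSO_NEUR, 6906 in NEUR and 157 in UNDIF. The lowest gene was S100A6 in FT671_NEUR (94.1) and ANXA4 in DMSO_NEUR, NEUR and UNDIF (66.5, 78.8 and 20.5). The exon union is 11048 bases for ANXA4, 8824 for ANXA2, 4561 for ANXA1, 1543 for S100A10 and 680.0 for S100A11. A union that includes rarely used exons lowers the value per kb. The order of the genes on this scale, S100A10 above ANXA2 included, thus depends on the lengths used. Without regard to length, ANXA2 had more normalized counts than S100A10 in every library.

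The S100A10 to ANXA2 ratio within a library does not depend on library scaling. It was 0.543, 0.549 and 0.522 in FT671_NEUR, 0.307, 0.289 and 0.302 in DMSO_NEUR, 0.267, 0.292 and 0.310 in NEUR and 0.552, 0.614 and 0.635 in UNDIF. Every FT671_NEUR library thus had more S100A10 per ANXA2 than every DMSO_NEUR library, and every NEUR library had less than every UNDIF library. The mean log2 ratio was higher by 0.85 in FT671_NEUR than in DMSO_NEUR and differed by -1.05 between NEUR and UNDIF, by 0.05 between DMSO_NEUR and NEUR and by -0.16 between FT671_NEUR and UNDIF. Exact two-sided permutation tests gave p = 0.1, 0.1, 0.7 and 0.1 for these 4 differences (adjusted 0.133, 0.133, 0.7 and 0.133), and 0.1 is the smallest p that 3 against 3 libraries allow.

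**Figure D3:**
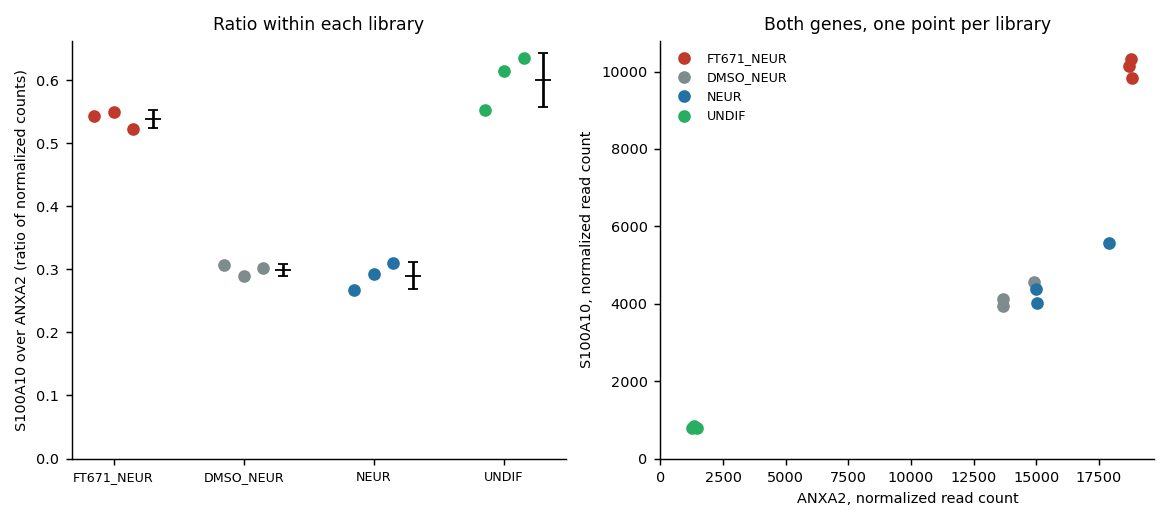
Left, ratio of S100A10 to ANXA2 normalized counts in each library, with the mean ± SD of 3. Right, both genes in each library: FT671_NEUR has a ratio of 0.522 to 0.549, against 0.289 to 0.307 in DMSO_NEUR, and UNDIF has 0.552 to 0.635 at low counts of both genes.

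Known partners of the ANXA2 and S100A10 complex and genes of plasminogen activation were measured for 9 of 10 listed. In FT671_NEUR against DMSO_NEUR 5 rose and 3 fell, where 40.2% of all genes were called higher and 39.7% lower, with a median log2 fold change of 0.76 against 0.01 over all genes. PLAUR, the urokinase receptor, rose by 1.88 ± 0.09, while PLAT, tissue plasminogen activator, fell by 1.99 and PLAU, urokinase, fell by 1.47. DLC1, which encodes a protein that binds S100A10, fell by 1.65. The limma adjusted p was at most 2.28e-10 for these 4. PLAUR averaged 3460.3 normalized counts in FT671_NEUR and 939 in DMSO_NEUR, and PLAU 8310.5 in FT671_NEUR and 23069.8 in DMSO_NEUR. In NEUR against UNDIF 8 of the 9 rose, against 40.4% of all genes, with a median of 2.09, and PLAU (4.50 ± 0.09), DLC1 (3.46 ± 0.09), AHNAK2 (2.37 ± 0.13) and PLAT (2.12 ± 0.10) rose most. AHNAK2 encodes a large scaffold protein related to AHNAK, which binds the complex.

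Receptors and binding partners of S100 proteins and annexins changed as follows with FT671: of 10 measured of 13 listed, 1 was higher, 4 were lower and 5 were not called, with a median of -0.41, where 40.2% of all genes were called higher and 39.7% lower. With libraries scaled by totals 7 were lower. NES, an intermediate filament protein of neural progenitors, fell by 2.24 and IL1A, a cargo of S100A13, by 1.69. CACYBP, the calcyclin-binding protein, fell by 0.99. In NEUR against UNDIF 7 were higher and 2 lower, against 40.4% and 41.6% of all genes, with IL1A (2.85 ± 0.14), FGF1 (1.90 ± 0.20), another cargo of S100A13, and NES (1.27 ± 0.07) rising most.

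Of the genes of plasma membrane repair and caveolae, 16 of 17 listed were measured, and all 16 rose in NEUR against UNDIF (median log2 fold change 1.25), where 40.4% of all genes of the table were called higher. With libraries scaled by totals 15 rose. The largest gains were those of CAV2 (4.29 ± 0.14) and CAV1 (3.78 ± 0.11), which encode caveolins, MYOF (4.05 ± 0.09), a ferlin, and CAPN2 (3.02 ± 0.06), a calpain subunit. In FT671_NEUR against DMSO_NEUR 10 rose and 2 fell, where 40.2% of all genes were called higher and 39.7% lower, with a median of 0.26, and with libraries scaled by totals 6 rose and 2 fell. EHD2, an ATPase of caveolar necks, rose by 1.91 ± 0.08, DYSF, or dysferlin, by 1.91 ± 0.09, CAV2 by 1.59 ± 0.14 and CAPN1, another calpain, by 1.14 ± 0.06. Each of these named changes had a limma adjusted p under the threshold.

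Cytosolic calcium sensors of the calmodulin type, a family without annexin or S100 members, changed in both directions. Of 11 measured of 12 listed, 3 rose and 4 fell in FT671_NEUR against DMSO_NEUR (median -0.08), against 40.2% and 39.7% of all genes. With TMM scaling 3 rose and 5 fell, and with libraries scaled by totals 3 rose and 6 fell. In NEUR against UNDIF 6 rose and 5 fell (median 0.47), against 40.4% and 41.6% of all genes. NCALD, a neuronal sensor, averaged 39.8 normalized counts in FT671_NEUR and 917 in DMSO_NEUR (log2 fold change -4.51 ± 0.13, limma adjusted p = 7.12e-15). CALB1, the calbindin of neurons, had 2 reads in all of FT671_NEUR and 136 in DMSO_NEUR, which puts the read ratio at 0.016 (95% counting interval 0.00192 to 0.0589). VSNL1 had log2 fold changes of -1.49 in FT671_NEUR against DMSO_NEUR and -4.08 in NEUR against UNDIF.

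The table holds 4 of 8 other annexins and 7 of 15 other S100 genes listed, and since the table holds almost only changed genes, the counts that follow describe only these. In NEUR against UNDIF, ANXA11, ANXA6 and ANXA7 rose by 0.99 ± 0.08, 0.91 ± 0.07 and 0.69 ± 0.06 on the log2 scale, and ANXA9 did not pass (-0.18 ± 0.14, limma adjusted p = 0.262). In FT671_NEUR against DMSO_NEUR, ANXA9, a divergent annexin, rose by 1.63 ± 0.14, ANXA11 by 0.54 ± 0.08 and ANXA7 by 0.49 ± 0.06, while ANXA6 fell by 0.23. ANXA9 had 220.4, 256 and 234 normalized counts in FT671_NEUR and 66.1, 79.4 and 82.1 in DMSO_NEUR.

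Of the other S100 genes, 5 had larger changes with FT671 than S100A10. S100A14, an epithelial S100 protein, had 1045, 1083 and 1199.7 normalized counts in FT671_NEUR, against 11.7, 15.5 and 11.7 in DMSO_NEUR (log2 fold change 6.32 ± 0.26, limma adjusted p = 7.29e-13). S100A9, a subunit of calprotectin, had 155, 164 and 176 in FT671_NEUR, against 2.92, 2.91 and 3.91 in DMSO_NEUR (5.30 ± 0.44, limma adjusted p = 7.71e-09). S100P, first found in placenta, had 112, 86.3 and 108 in FT671_NEUR, against 2.92, 0 and 3.91 in DMSO_NEUR (5.26 ± 0.59, limma adjusted p = 3.46e-07). With the solvent, S100A9 and S100P were at no more than 3.91 normalized counts in any library, and S100A14 at no more than 15.5.

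S100A4 and S100A3 moved the other way. S100A4, associated with motile and mesenchymal cells, had 619.9, 669 and 707 normalized counts in FT671_NEUR and 4039.7, 3526 and 3892 in DMSO_NEUR (-2.52 ± 0.11, limma adjusted p = 2.99e-12). S100A3, known from hair cuticle, had 131, 145 and 156 in FT671_NEUR and 785, 765 and 890.2 in DMSO_NEUR (-2.49 ± 0.27, limma adjusted p = 2.28e-07). S100A2 was lower as well (-0.98 ± 0.28, limma adjusted p = 0.00438). S100A16 was slightly higher (0.29 ± 0.09, limma adjusted p = 0.00730) and was not called with libraries scaled by totals (0.17, adjusted p = 0.0959).

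In NEUR against UNDIF, S100A3 rose by 6.16 ± 0.27, S100A16 by 3.34 ± 0.09, S100A2 by 2.94 ± 0.28 and S100A4 by 1.93 ± 0.11. S100A14 rose by 0.72 ± 0.26 (limma adjusted p = 0.0162) and lost its call without NEUR replicate 3 (0.42, adjusted p = 0.109) or without UNDIF replicate 3 (0.61, adjusted p = 0.0629). S100A9 was called too, on 18 reads in NEUR and 2 in UNDIF, which puts the read ratio at 9.4 (95% counting interval 2.25 to 83.5). S100P did not pass (-0.16 ± 0.59, limma adjusted p = 0.808).

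**Figure D4:**
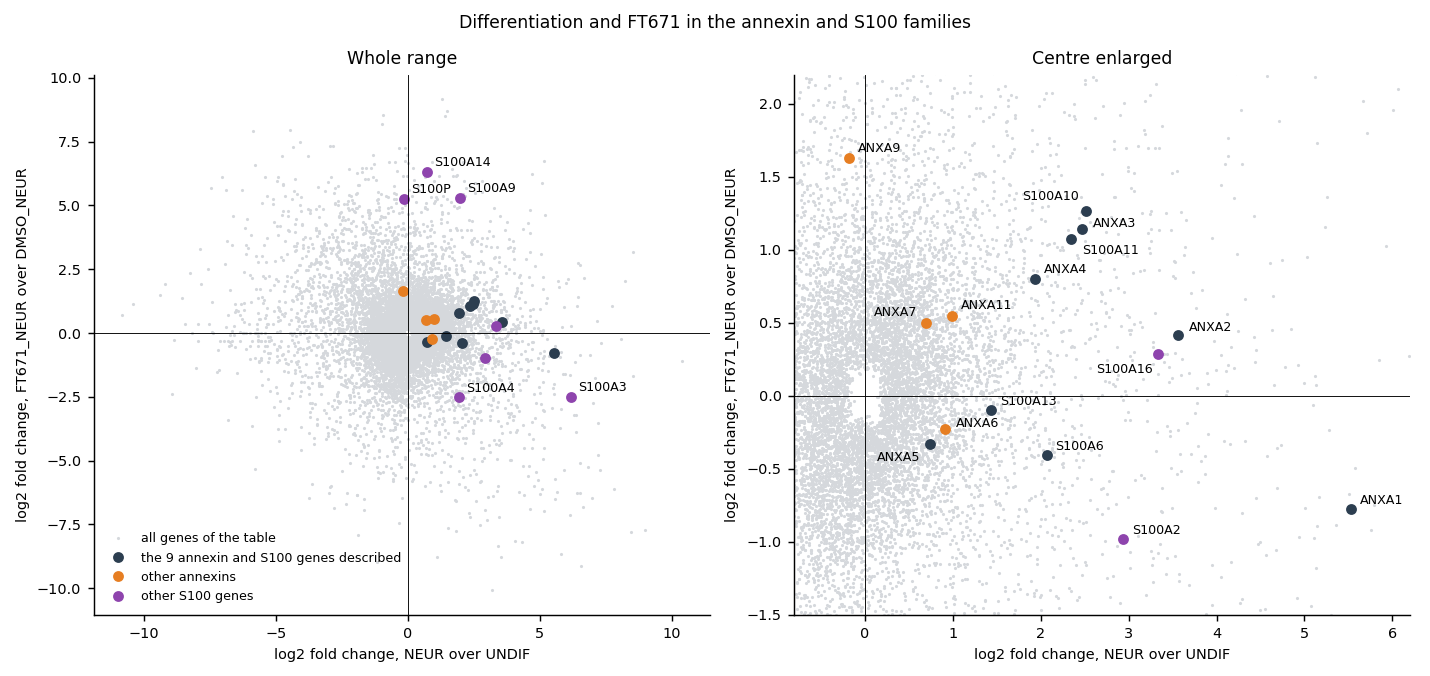
Log2 fold change of FT671_NEUR over DMSO_NEUR (vertical) against that of NEUR over UNDIF (horizontal) for all genes of the table and both families, whole range at left and the centre enlarged at right. The 9 genes described lie right of 0, while S100A14, S100A9 and S100P lie high with FT671 (6.32, 5.30 and 5.26) and S100A4 and S100A3 low (-2.52 and -2.49). The centre holds no gene within 0.1 of 0 on both axes, while 99 genes lie within 0.2.

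Of the 16 S100A genes in the cluster on chromosome 1, 10 are in the table, in the order S100A10, S100A11, S100A9, S100A6, S100A4, S100A3, S100A2, S100A16, S100A14 and S100A13. Neighbours along it differed with FT671, where 40.2% of all genes of the table were called higher and 39.7% lower. S100A10, S100A11 and S100A9 at one end were called higher, S100A6, S100A4, S100A3 and S100A2 in the middle were called lower, S100A16 and S100A14 were called higher, and S100A13 was not called. In NEUR against UNDIF all 10 were called higher, where 40.4% of all genes were. The limits given above hold here too: with FT671 for the calls of S100A6 and S100A16, and in NEUR against UNDIF for those of S100A14 and S100A9. Genes not in the table were not analysed here.

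**Figure D5:**
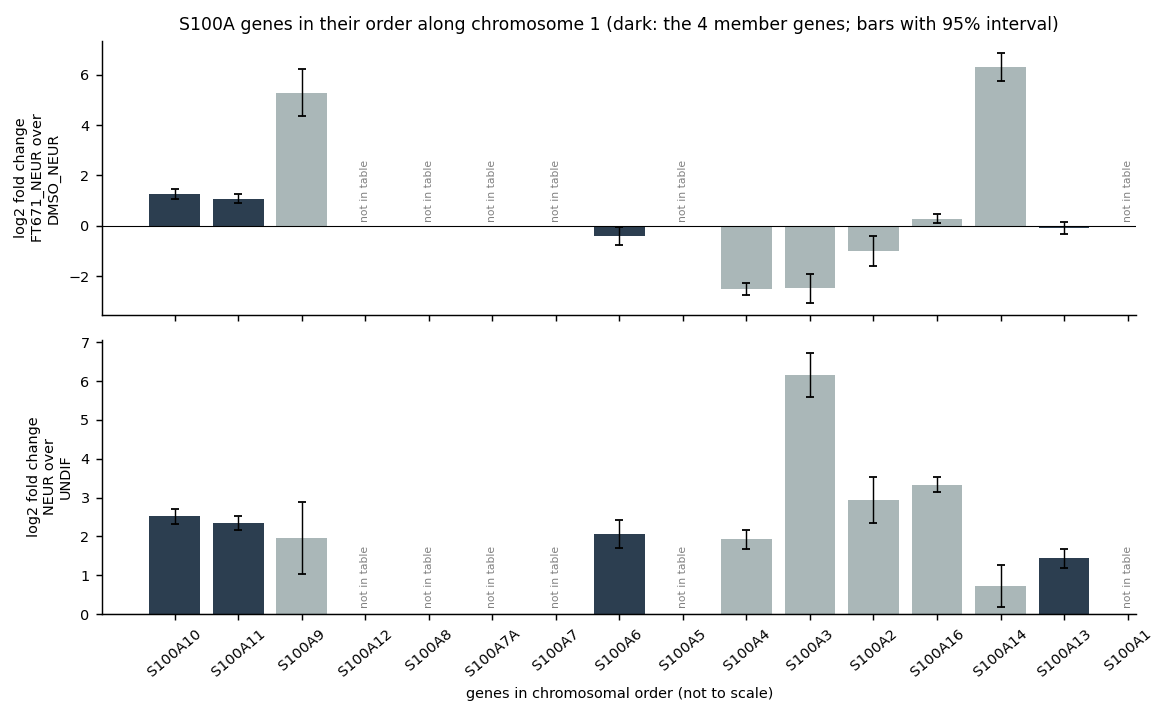
Log2 fold changes with 95% intervals of the S100A genes in their order along chromosome 1, FT671_NEUR over DMSO_NEUR above and NEUR over UNDIF below, dark bars for S100A10, S100A11, S100A6 and S100A13. With FT671 the bars run from 6.32 for S100A14 to -2.52 for S100A4, and after differentiation all 10 are above 0.

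Likeness of pattern was measured as the root mean square difference, over the 12 libraries, of log2 values centred on each gene's mean. Among the 36 pairs of the 9 genes the closest were ANXA3 with S100A11 (0.153), ANXA3 with S100A10 (0.159) and S100A10 with S100A11 (0.201), and the farthest was ANXA1 with ANXA5 (1.99). ANXA2 and S100A10 stood at 0.482. Over all genes of the table with a symbol, the nearest to S100A10 and to ANXA3 was SMPD1 (0.123 and 0.148), the gene of acid sphingomyelinase, and the nearest to S100A11 was RHOC (0.0992). SMPD1 averaged 1787 normalized counts in FT671_NEUR, 784 in DMSO_NEUR, 849 in NEUR and 143 in UNDIF.

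The nearest to ANXA2 were CD44 (0.125), the hyaluronan receptor, and S100A16 (0.127). CD44 averaged 1864 normalized counts in FT671_NEUR, 1520.2 in DMSO_NEUR, 1590.2 in NEUR and 138 in UNDIF. ANXA1 was most like COL8A1 (0.228), a collagen gene, and HBEGF (0.266), a ligand of the EGF receptor. ANXA4 was most like PON2 (0.0868), ANXA5 like DERL2 (0.0605), S100A6 like CLIC1 (0.114) and S100A13 like TMSB4X (0.123). All of these values come from the same libraries and are descriptions.

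Reads of some members could be shared with other annotated sequences. In GENCODE release 29, 33.5% of the exon bases of S100A13 overlap other genes, AL162258.1 on the same strand and S100A1 on the other strand, and 2.37% of those of S100A6 do. The exons of the other 7 genes overlap none. ANXA2 and S100A11 also have processed pseudogene copies, whose share in the counts was not measured. Strand use in counting is not given in the sources used here, so the S100A13 values are uncertain by any reads of AL162258.1, whatever the strand setting, and of S100A1.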

How the data were processed

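The deposited table gives, per gene, a signal that the authors made from read counts: each gene's count was divided by its library's size factor and 1 was added, as the values themselves show. STAR, HTSeq, DESeq2, R 4.3.1 and hg19 are named in the submitters' processing notes. It also gives the authors' FDR (a q-value) for undifferentiated and untreated neural cells. After 1 was subtracted, 100% of values were whole multiples of the worth of 1 read in each library (tolerance 0.001 reads, largest deviation 4.35e-05), so reads were recovered, 15906471 to 17271155 per library in table genes. Columns not used numbered 32. Of 763 genes without a symbol, 534 were named from their ID.

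limma 3.58.1 (R 4.3.3) with an intensity trend was fitted to log2(normalized count + 1) of all 12 libraries, 1 mean per group, after a test on simulated data. edgeR 4.0.16 (quasi-likelihood) and DESeq2 1.42.0 on recovered reads, other scalings, pseudocounts of 0.5 and 5, a mean of at least 100 and fits without each library were alternatives. The ratio was tested with exact permutations. Promoters are RefSeq's (GRCh38.p14). Named genes are all 9 members, measured genes of both families, USP7, up to 4 called genes per other list with the largest changes in either main comparison, and the genes nearest in pattern. Members and lists were chosen with earlier results of these data known. Intervals of read ratios cover counting error only, and counting error is largest for S100A6, the member with fewest reads.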

Additional observations from a re-analysis of the deposited data

How the results depend on the processing

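Over the alternatives run, the 9 genes kept their direction and their side of the threshold in NEUR against UNDIF, and 8 of 9 did in FT671_NEUR against DMSO_NEUR and in FT671_NEUR against UNDIF. S100A6 was not tested with a mean of at least 100 normalized counts, which removes it. In DMSO_NEUR against NEUR none was called in any alternative, and the uncalled differences ran from -0.33 to 0.02 without single libraries. The exceptions were S100A6 in FT671_NEUR against DMSO_NEUR, whose log2 fold change ranged from -0.52 to -0.31 without single libraries and lost its call in 3 of these fits, and ANXA5 in FT671_NEUR against UNDIF, at 0.092 with libraries scaled by totals. The cause was not tested. That scaling moved the median log2 fold change of all genes to -0.11 for FT671_NEUR against DMSO_NEUR, -0.17 for NEUR against UNDIF and -0.27 for FT671_NEUR against UNDIF, and gave 4583 higher and 5893 lower calls, 4455 and 6281, and 4789 and 6750 in that order, against 5347 and 5280, 5376 and 5541, and 5863 and 5848 with the deposited factors. With a mean of at least 100, NEUR against UNDIF had 4833 higher and 4198 lower calls.

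The count of genes called between DMSO_NEUR and NEUR, 53, was 0 by limma when only these groups were fitted (729 genes at an unadjusted p under 0.05), 111 by DESeq2 and 24 to 56 without single libraries. It was 24, 30 and 31 without DMSO_NEUR replicates 1, 2 and 3, and 32, 32 and 30 without FT671_NEUR replicates 1, 2 and 3. Without single libraries, genes called numbered 10076 to 11014 in FT671_NEUR against DMSO_NEUR, 10337 to 10917 in NEUR against UNDIF and 11375 to 11977 in FT671_NEUR against UNDIF.

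On recovered reads, genes called in FT671_NEUR against DMSO_NEUR, NEUR against UNDIF, DMSO_NEUR against NEUR and FT671_NEUR against UNDIF numbered 10628, 11021, 66 and 11766 by edgeR and 10605, 10957, 111 and 11719 by DESeq2.

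With the replicate number as a block, 10527, 10817, 41 and 11648 genes were called in these comparisons, in the same order. No call of the 9 genes changed. Same-numbered libraries did not clearly deviate together: over 18 pairs r ran from -0.172 to 0.069. With deviations taken from means of 3 libraries a weak pairing would not be seen, so pairing by number is not excluded.

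Choices added after seeing the data were the counts of the 9 genes and the list genes under each alternative. With 3 libraries a group, the interval for S100A13 with FT671 covers differences in both directions, and depth limits S100A6 most.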
